A study of Arabidopsis thaliana with 9 samples.

Results

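Intron counts were compared between seedlings of 2 pp4r3a mutants and of wild-type Col-0 Arabidopsis thaliana. The deposited tables give a count of reads in exons and one of reads in introns per library for 37869 loci, and there are 9 libraries. The intron share of a gene is its intron count divided by the sum of its intron and exon counts. The genes described are those whose intron count reached 10 or more in every Col-0 library, which are 7274 of the 37869 loci, and they hold 84.4% of all intron counts and 64.4% of all exon counts. Of these 7274 genes, called members here, 7003 are protein coding in the TAIR10.1 annotation, and 34 have no entry in it, 23 with a chloroplast and 11 with a mitochondrial locus prefix.

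The 9 libraries came from whole 12-day-old seedlings grown on half-strength MS medium with 16 h of light and 8 h of darkness, with 3 biological replicates for each genotype. Col-0 is the reference accession of Arabidopsis. The mutants pp4r3a-1 and pp4r3a-2 are named as alleles of PP4R3A (AT3G06670), and the nature of each lesion is not given in the labels. Polyadenylated RNA was selected from total RNA in all 3 genotypes, no treatment was applied, and the same 3 Col-0 libraries serve as controls for both alleles. The series as a whole addresses how the protein phosphatase 4 complex acts on the transcription and processing of primary microRNAs, loci that are not analysed here.

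Protein phosphatase 4 is a serine/threonine phosphatase made of a catalytic subunit and regulatory subunits, of which PP4R3A is one. Introns are cut out of the primary transcript by the spliceosome, in plants largely while the transcript is still being made. An intron read in a poly(A)-selected library can come from a transcript that is polyadenylated and still holds the intron, and retention of an intron is the most common form of alternative splicing in Arabidopsis.

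Exon counts per library ran from 20733294 to 27022497. Intron counts ran from 499857 to 542072 in Col-0, from 732564 to 842797 in pp4r3a-1 and from 634157 to 773395 in pp4r3a-2. One library, pp4r3a-2 replicate 3, stood apart in its exon counts: the chi-square per degree of freedom between it and the other pp4r3a-2 libraries was 12.1 and 8.31, against 1.62 to 3.99 for the other pairs of one genotype, and 0.962% of its exon counts lay at chloroplast-prefixed loci against 0.427% to 0.557% in the other 8 libraries. Its intron counts did not stand apart, with 1.26 and 1.17 per degree of freedom against 1.0 to 1.33. All 5 leaf markers were above 1 CPM, the count per 1000000 exon counts of the library, in every library, and no marker of leaf, root, flower or seed was at 0 in all libraries. The summed exon level of the 5 leaf markers was 18864 to 19861 CPM in Col-0, 18252 to 19465 in pp4r3a-1 and 22797 to 24124 in pp4r3a-2. That of the 5 seed storage and oil body markers was 9.38 to 13.0 CPM in Col-0, 66.8 to 69.3 in pp4r3a-1 and 104 to 106 in pp4r3a-2, that of the 5 root markers was 1779 to 1834, 2051 to 2136 and 1997 to 2053 CPM, and that of the 5 flower markers was 3.40 to 4.19, 1.98 to 2.39 and 4.48 to 4.71 CPM. The part of these markers in the results on introns was not tested, and in whole seedlings fewer cells of a type and less RNA per cell cannot be told apart.

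PP4R3A itself, on chromosome 3 from 2105399 to 2113698 on the minus strand, had intron shares of 1.89%, 1.73% and 2.17% in Col-0, of 7.75%, 6.91% and 6.50% in pp4r3a-1, beside 11.3%, 11% and 11.8% in pp4r3a-2. The 3 genotypes did not overlap. Its exon level was 80.3 ± 1.42 CPM in Col-0, 62.5 ± 2.57 in pp4r3a-1 and 18.4 ± 0.238 in pp4r3a-2 (SD, n = 3 each). Thus its intron level rose by 1.08 on the log2 scale in the mean of both mutants while its exon level fell by 1.24. Of the 3 other subunits listed, 2 are members, and their shares rose in both alleles. PP4R2L, a regulatory subunit-like protein, went from 5.84% ± 0.74 to 15% ± 2.32 and 15% ± 0.796, and PPX2, a catalytic subunit, from 5.10% ± 0.818 to 13.3% ± 2.23 and 12.0% ± 2.56 (SD, n = 3). After the centring described further on, their ratio changes in the mean of both mutants were 0.53 (edgeR adjusted p = 0.0259) and 0.45 (0.0954). PPX1, the paralog of PPX2, is below the membership threshold with 6, 3 and 0 intron counts in Col-0 and 6 to 16 in the mutant libraries.

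Intron reads made up a larger part of the reads of most members in every mutant library than in any Col-0 library. The median share over the 7274 members was 2.63%, 2.71% and 2.71% in Col-0. It was 4.75%, 4.95% and 4.86% in pp4r3a-1, against 4.55%, 4.51% and 4.61% in pp4r3a-2. The 6 mutant libraries lay above the 3 Col-0 libraries with no overlap, and the pp4r3a-1 libraries lay above those of pp4r3a-2. The mutants' mean was 1.75-fold that of Col-0, with an exact two-sided permutation p of 0.0238, the smallest that the 84 arrangements of 3 and 6 libraries can give. A single allele cannot be tested in this way, since 3 libraries against 3 cannot go below 0.10. With the counts of all members pooled, the share was 2.75% ± 0.0557 in Col-0, 4.05% ± 0.128 in pp4r3a-1 and 3.81% ± 0.0388 in pp4r3a-2 (SD, n = 3), a rise of 1.19 percentage points over both mutants (exact permutation p = 0.0238). Leaving out a Col-0 library left a rise of 1.16 to 1.21 points at an exact permutation p of 0.0714, the smallest that design allows.

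**Figure D1:**
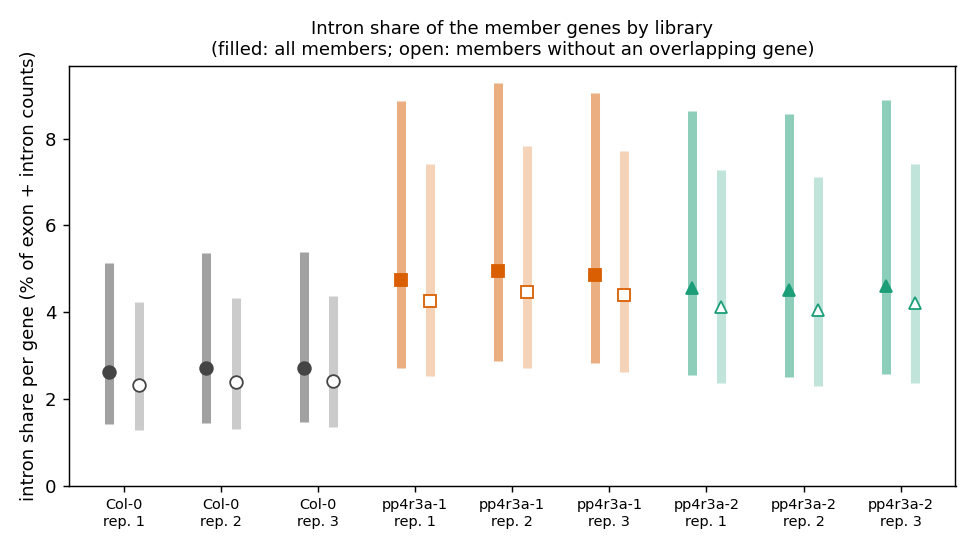
Intron share (intron counts as a percentage of intron plus exon counts) in each of the 9 libraries. Symbols are medians over genes and bars run from the 25th to the 75th percentile, filled for all 7274 members and open for the 4337 members without an overlapping gene; the medians of the 6 mutant libraries, from 4.51% to 4.95% over all members, sit above those of Col-0, from 2.63% to 2.71%.

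Genes that overlap another annotated gene need care, because the strand setting of the counting is not given and reads of a neighbour may be counted in an intron. Of the members, 2903 overlap another gene and hold 47.1% of the members' intron counts. The 4337 annotated members without such an overlap had a median share of 2.37% ± 0.0494 in Col-0, 4.37% ± 0.0985 in pp4r3a-1 and 4.12% ± 0.079 in pp4r3a-2 (SD, n = 3), a 1.79-fold difference. The share of these genes with over 10% of their counts in introns was 6.99% to 7.29% in the Col-0 libraries and 14.6% to 17.2% in the mutant libraries. Their pooled share was 1.97% in Col-0, 3.24% in pp4r3a-1 and 3.00% in pp4r3a-2, while that of the overlapping members went from 4.14% to 5.51% and 5.22%.

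For each gene the ratio of intron to exon counts was then fitted in edgeR over 15115 genes with at least 30 intron counts in all, among them every member. In the mean of both mutants against Col-0 the ratio was higher in 5392 members (74.1%) and lower in 130 at an adjusted p under 0.05. Over all genes tested, 68.4% were higher and 1.14% lower. The members' median log2 change of the ratio was 0.77, which is 1.71-fold, with an interquartile range of 0.38 to 1.15, against 0.92 over all genes tested. Genes that are tested but are not members passed the filter partly through their counts in the mutants, and the membership rule reads the Col-0 counts that the ratio also uses, so nothing is read from the difference between these medians. Without an overlapping gene, 3472 of 4337 members were higher and 30 lower, with a median of 0.84. In 4553 members every mutant library had a higher share than every Col-0 library, against 55.4% of all genes tested, and in 86 every mutant library had a lower share, against 0.734%.

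Because nearly the whole distribution moved, the scaling decides the sign for many genes. With each library's median ratio over all genes tested taken out, 987 members were higher and 2212 lower (14.8% and 17.4% of all genes tested), and the members' median was -0.19. Directions below are those of the ratio as counted, and for gene lists and classes the value after this centring is given beside them. Members just inside and just outside the membership threshold had like values: the 463 genes whose lowest Col-0 count was 10 had median shares of 1.96% in Col-0 and 3.80% in the mutants and a median change of 0.96, and the 497 genes with a lowest count of 9 had 1.92%, 3.72% and 0.92.

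The alleles share their control libraries, so their values are given side by side only. Against Col-0, pp4r3a-1 had 5329 members higher and 121 lower (67.3% and 1.01% of all genes tested), with a median change of 0.82. The allele pp4r3a-2 had 4789 higher and 131 lower (59.4% and 1.09% of all genes tested), with a median of 0.71. In the direct comparison of pp4r3a-2 with pp4r3a-1 the ratio was higher in 117 members and lower in 497 (1.01% and 4.61% of all genes tested), with a median of -0.09. After centring, these counts were 285 and 268 (2.31% and 2.45% of all genes tested), beside 866 and 2045 for pp4r3a-1 against Col-0 (13.4% and 15.9%) and 894 and 1899 for pp4r3a-2 (12.6% and 14.7%). Without pp4r3a-2 replicate 2 the count of lower members between the alleles was 313. Without pp4r3a-2 replicate 3, the library that stood apart in its exon counts, 4434 members were higher and 116 lower in pp4r3a-2 against Col-0, and 83 higher and 398 lower in pp4r3a-2 against pp4r3a-1. Few of these calls were made by limma (1 and 3) or DESeq2 (4 and 64).

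On a scale set by the exon counts, the ratio changed mainly through the intron counts. That scale holds the typical exon change near 0, so a shift shared by most genes has to appear in the intron level. With TMM factors of the intron counts, the intron level was higher in 1459 members and lower in 2683. Scaled by the exon counts of each library, the intron level was higher in 4904 members and lower in 605 (74.9% and 4.94% of 12397 genes tested), with a median log2 change of 0.68 against 0.99 over all genes tested. Genes tested here that are not members can pass the filter through their mutant counts alone. Of these 5130 genes, 4386 were higher and 8 lower, so nothing is read from the difference between members and all genes tested. The exon level was higher in 2453 and lower in 3278 (37.7% and 37.2% of 22616 genes tested), with a median of -0.06. Of the 3472 members without overlap whose ratio was higher, 2886 also had a higher intron level. In 480 of the rest the intron level was not called and the exon level was lower. The exon level of these 3472 genes was higher in 1257, lower in 1567 and not called in 647, so that a higher intron ratio was found in genes of either direction. Across the 4337 members without overlap, the ratio change and the exon change had a Spearman rho of -0.07, and the intron change and the exon change one of 0.62; the genes share their libraries, and the exon counts enter both terms of the first pair.

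**Figure D2:**
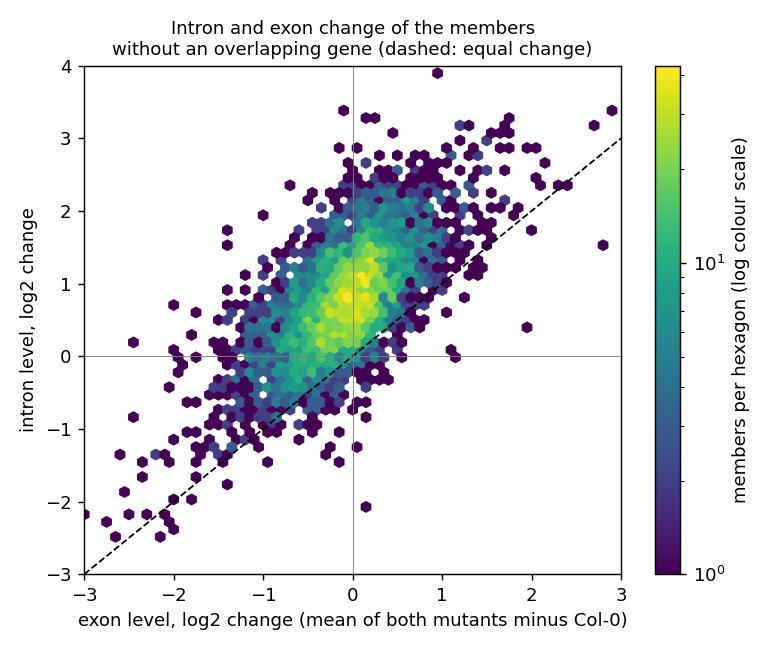
Log2 change of the intron level (y axis) against that of the exon level (x axis), mean of both mutants minus Col-0, for members without an overlapping gene and with both levels tested. Colour gives the number of genes per hexagon on a log scale and the dashed line marks equal change; 4129 of 4320 genes (95.6%) lie above the line, and 13 fall outside the axes.

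The share was lower in the more highly expressed members of every genotype. The members without overlap were split into quartile groups by their mean exon level over the 9 libraries. Median log2 changes of the ratio were 0.73, 0.85, 0.93 and 0.85 from the lowest to the highest group, and 66.1%, 80.7%, 87.1% and 87.2% of the genes were higher. The share was 5.54% ± 0.20 in Col-0, 9.84% ± 0.326 in pp4r3a-1 and 9.33% ± 0.302 in pp4r3a-2 in the lowest group, and 1.08% ± 0.0239, 2.16% ± 0.0607 and 1.96% ± 0.036 in the highest (SD of the library medians, n = 3). A gene of low exon level is a member only if its Col-0 share is high, so the membership rule bears on both the shares and the changes of these groups, and no difference between them is read. Depth moves with these counts as well. The quartile groups by intron counts had median totals of 192, 307, 471 and 921 counts per gene over the 9 libraries, median SEs of 0.25, 0.20, 0.17 and 0.12, and 61.3%, 84.1%, 89.4% and 86.2% of genes called higher.

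Among the members without overlap, genes with longer introns had the larger median change. From the shortest to the longest mean intron length, the median changes were 0.70, 0.81, 0.87 and 1.0. Genes with short introns, of a median of 99.7 bases, went from a share of 2.19% ± 0.0549 in Col-0 to 3.68% ± 0.154 and 3.46% ± 0.0599, and genes with long introns, of a median of 299 bases, from 2.88% ± 0.0437 to 6.0% ± 0.183 and 5.46% ± 0.141. The difference of 0.30 on the log2 scale between the longest and the shortest group had an exact permutation p of 0.0238, adjusted 0.0357 over 3 groupings of which exon level was 1. The membership rule reads the Col-0 intron counts that the ratio also uses, and its part in this difference was not tested. The difference is therefore not read as an effect of intron length. The Col-0 share was also higher in the longest than in the shortest group. By the number of introns, from a median of 2 to a median of 14, the changes were 0.89, 0.81, 0.79 and 0.87, and the highest and lowest groups did not differ beyond the spread of the libraries (difference 0.01, exact permutation p = 0.786).

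To reach genes below the membership threshold as well, intron counts were summed over 12553 nuclear protein-coding genes without overlap, in bins of mean exon level, and divided by the annotated intron length, on the CPM scale set by the exon counts of the library. In the 2044 genes at or under 0.1 CPM the density was 11.7 ± 0.489 CPM per megabase of intron in Col-0, 10.5 ± 0.165 in pp4r3a-1 and 10.5 ± 0.73 in pp4r3a-2 (SD, n = 3), a ratio of 0.899 (exact permutation p = 0.0476, adjusted 0.0536 over 9 bins). In the 966 genes from 0.1 to 1 CPM it was 110, 112 and 109, a ratio of 1.0 (exact permutation p = 0.929). Above that it was 1.22-fold higher from 1 to 5 CPM, 1.72-fold from 5 to 10, 1.95-fold from 10 to 20, 1.91-fold from 20 to 50, 1.80-fold from 50 to 100, 1.66-fold from 100 to 300 and 1.26-fold above 300 CPM, each with no overlap between mutants and Col-0 (exact permutation p = 0.0238, adjusted 0.0306). In the 217 genes above 300 CPM the alleles were apart too, at 11165 to 11530 in Col-0, 15112 to 15952 in pp4r3a-1 and 13178 to 13329 in pp4r3a-2. Exon counts at 3672 pseudogenes under 1 CPM in every library summed to 34.5 ± 1.01 CPM in Col-0 and 29.6 ± 1.76 and 27.9 ± 1.76 in the mutants (SD, n = 3). No mutant library lay above the highest Col-0 library in the genes at or under 0.1 CPM. In the pseudogenes the mutant libraries, at 31.3 CPM or less, lay below the Col-0 libraries, at 33.3 or more. From 0.1 to 1 CPM the mutant libraries ran from 105 to 117 and the Col-0 libraries from 109 to 110.

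**Figure D3:**
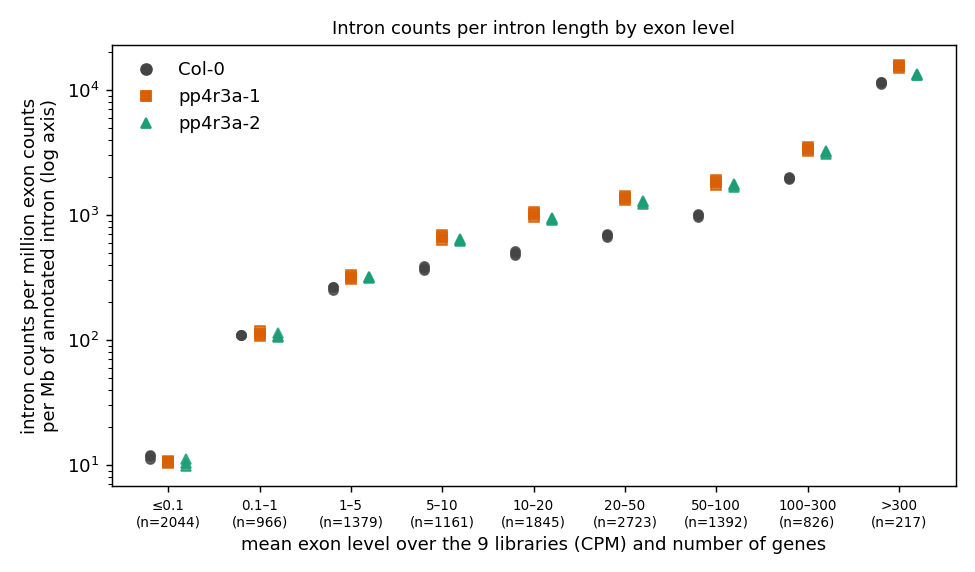
Intron counts in CPM (scaled by exon counts) per megabase of annotated intron (y axis, log scale) in bins of mean exon level (x axis, CPM), with 1 symbol for each of the 9 libraries. Mutant and Col-0 libraries overlap in the bins at or under 0.1 CPM and from 0.1 to 1 CPM, and the mutants lie 1.22-fold to 1.95-fold higher in the bins above those.

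Among members of at least 10 CPM without overlap, 2648 of 4026 were higher in the mean contrast and in both alleles with no overlap between libraries, and 13 were lower in the same way. The 8 largest rises ran from a log2 change of 2.99 to 3.50. AT4G19200, a proline-rich family protein, had the largest, with shares of 0.350%, 0.318% and 0.250% in Col-0, 2.48%, 2.11% and 3.54% in pp4r3a-1, against 4.47%, 4.04% and 4.35% in pp4r3a-2. Its intron counts rested on 10 to 13 reads in each Col-0 library and on 77 to 174 in each mutant library, and its change was 3.50 ± 0.18 (SE, edgeR adjusted p = 1.84e-59). TET8, a tetraspanin of the cell membrane, went from 0.938%, 0.717% and 0.880% to 11.9%, 12.9% and 12.1% in pp4r3a-1, beside 5.05%, 5.43% and 5.13% in pp4r3a-2, a change of 3.36 ± 0.18. These shares rest on 10 to 12 intron counts in each Col-0 library and on 120 to 372 in each mutant library. All 3 genotypes were apart in TET8, the reverse order of the alleles from AT4G19200.

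Several of these genes are housekeeping or highly expressed. UBQ10, a polyubiquitin gene whose repeats are shared with other ubiquitin genes and whose counts may therefore be split, had 0.104% to 0.127% in Col-0, 0.895% to 1.08% in pp4r3a-1 and 0.897% to 1.04% in pp4r3a-2. TUB5, a beta-tubulin, had 0.397% to 0.544%, 3.84% to 4.15% and 3.66% to 3.68%. LHCA1, an antenna protein of photosystem I with a mean exon level of 3474 CPM, had 0.0237% to 0.0319% in Col-0, from 13 to 18 counts, and 0.281% to 0.305% and 0.158% to 0.176% in the mutants, from 133 to 315 counts. Mutant and Col-0 libraries did not overlap in any of the 3. The other 3 were AT3G49560, a family member of the mitochondrial import translocases, at 1.02% ± 0.0478 against 8.38% ± 0.226 and 7.77% ± 0.106, AT3G61260, a remorin family protein, at 0.651% ± 0.0912 against 5.28% ± 0.483 and 5.20% ± 0.294, and NIA1, a nitrate reductase, at 0.225% ± 0.0309 against 1.81% ± 0.0849 and 1.72% ± 0.299 (SD, n = 3). In AT3G61260 and NIA1 the exon level fell, by 1.36 and 1.39 on the log2 scale, while the intron level rose by 1.73 and 1.59. All 8 were higher after centring too, by 2.02 to 2.54.

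In genes with a single annotated intron the counted reads must lie in that intron if the counting used this annotation. Of 515 such members, 247 have no overlap at any exon level. With the threshold of 10 CPM, 148 met all criteria for a rise and 1 for a fall. These are part of the 2648 and 13 of 4026 members above, so nothing particular to genes with a single intron is read. TET8 is 1 of the 148, with 1 intron of 672 bases. AT4G10080, an uncharacterised protein with an intron of 1129 bases, went from 4.27%, 4.30% and 4.12% to 19.5%, 20.8% and 20.7% in pp4r3a-1, against 26.0%, 24.9% and 25.7% in pp4r3a-2. AT5G64880, also uncharacterised, with 1006 bases, went from 3.34% ± 0.0728 to 21.1% ± 2.43 and 14.7% ± 1.01. EMB3113, a ribosomal protein S5 family member with 516 bases, went from 0.159% ± 0.0264 to 0.925% ± 0.0929 and 0.689% ± 0.112 (SD, n = 3). The single fall was AT2G36320, an A20/AN1-like zinc finger protein whose intron of 176 bases lies in the 5′ untranslated region: its share was 11.2%, 15.4% and 15.6% in Col-0 and 9.18% to 10.3% in the 6 mutant libraries, and its intron level fell by 1.12 on the log2 scale against 0.56 for its exon level.

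The ends of the introns of these 4 rising genes are shown so that the sites concerned can be read. Each line gives the first or last 30 bases of the intron in the direction of transcription, from the RefSeq TAIR10.1 genome, with the GT and AG at the borders in capitals. The introns lie inside the coding sequence, at chr2:10136174-10136845 (minus strand) for TET8, chr4:6300580-6301708 (minus) for AT4G10080, chr5:25932635-25933640 (plus) for AT5G64880 and chr2:14301175-14301690 (minus) for EMB3113, and all 4 have the usual GT and AG borders.
TET8 start: GTaaaaattttgactttgatgtgattttaa
TET8 end: taactaacgaatctttgttttgtgttacAG
AT4G10080 start: GTacactatattatcattgacccttgtgtt
AT4G10080 end: cacgtcttgggttgtttatgatctgtgcAG
AT5G64880 start: GTaactctaatactatctgtctctttcaat
AT5G64880 end: taatgaactcatcggtttttgtaatcacAG
EMB3113 start: GTaatcaaagttttggacttgatgtttgta
EMB3113 end: agagggttttgtttggtttttgtattatAG

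The 8 largest falls were of several kinds. ABCG40, a transporter of the pleiotropic drug resistance type, had shares of 41.2%, 46.9% and 45.1% in Col-0, 2.08%, 1.79% and 1.80% in pp4r3a-1, beside 5.82%, 3.59% and 3.26% in pp4r3a-2, with no overlap. Its intron level did not pass the test (log2 change -0.10, edgeR adjusted p = 0.627), while its exon level went from 1.83 ± 0.157 CPM in Col-0 to 68.2 ± 4.4 and 31.8 ± 0.783 (SD, n = 3). ARGAH2, an arginase, fell from 6.54% ± 1.5 to 2.72% ± 0.29 and 2.69% ± 0.338, and here the exon level rose by 2.83 and the intron level by 1.51 on the log2 scale. In these 2 genes the lower share thus came with many more exon counts. The threshold of 10 CPM applies to the mean exon level over all 9 libraries. Both genes were under it in Col-0, ABCG40 at 1.83 and ARGAH2 at 7.59 CPM, and reached it only through the mutants. Nothing is therefore read from their place among the largest falls.

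In 5 of the other 6 genes the intron counts fell. RS31, an SR-type splicing factor, had shares of 21.2%, 21.2% and 22.7% in Col-0, 11.1%, 10.6% and 9.76% in pp4r3a-1, against 9.47%, 8.53% and 11.3% in pp4r3a-2, from 253 to 276 intron counts in each Col-0 library and 80 to 111 in each mutant library. Its intron level fell by 1.49 and its exon level by 0.19. UAP56A, a DEAD-box RNA helicase that acts in spliceosome assembly and mRNA export, had 16.4%, 16.4% and 15.6% in Col-0 and 7.05% to 8.22% in the mutants, its intron level falling by 1.20 with no call in the exon level. GEMIN2, an assembly factor of the spliceosome's small nuclear ribonucleoproteins, had 14.1%, 9.21% and 15.9% in Col-0, 4.24%, 3.07% and 3.04% in pp4r3a-1, beside 3.52%, 1.99% and 2.84% in pp4r3a-2, and its intron level fell by 2.06. The mutant libraries lay below all Col-0 libraries in each of these genes. AT3G63450, an RNA-binding protein, went from 14.5% ± 1.0 to 7.66% ± 0.738 and 8.84% ± 3.03, and AT1G19400, an erythronate-4-phosphate dehydrogenase family protein, from 4.5% ± 0.812 to 2.35% ± 0.447 and 2.15% ± 0.707 (SD, n = 3). Over the 30 members without overlap whose ratio was lower, the intron level was lower in 18 and higher in 3, and the exon level was higher in 15 and lower in 9.

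**Figure D4:**
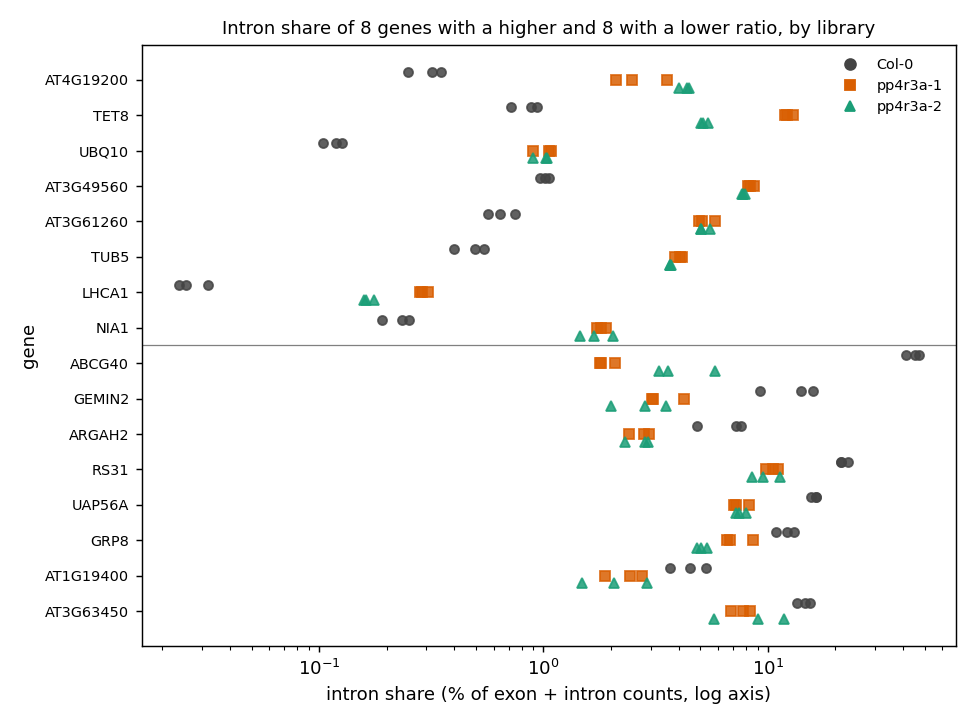
Intron share (percent of intron plus exon counts, log axis) in each library for the 8 genes with the largest higher ratio (above the line) and the 8 with the largest lower ratio (below it) among members of at least 10 CPM that met all criteria. Each symbol is 1 library. ABCG40 went from 41.2% or more in Col-0 to 5.82% or less in the mutants, and AT4G19200 from 0.350% or less to 2.11% or more. ABCG40 and ARGAH2 reached a mean of 10 CPM over the 9 libraries only through the mutants.

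GRP8 and its close paralog GRP7 encode glycine-rich RNA-binding proteins under the control of the circadian clock, and each is known to bind its own and the other's transcript and to favour a splice form that keeps part of the intron. The share of GRP8 was 10.8%, 12.2% and 13.1% in Col-0, 6.76%, 8.60% and 6.60% in pp4r3a-1, against 5.04%, 5.33% and 4.84% in pp4r3a-2, with the 3 genotypes apart. Its exon level went from 269 ± 16.2 CPM to 666 ± 53.0 and 521 ± 10, while its intron level moved in opposite directions in the alleles. On the log2 scale it rose by 0.51 in pp4r3a-1 and fell by 0.40 in pp4r3a-2, both past the edgeR threshold, and their mean of 0.05 did not pass it (adjusted p = 0.364). Between the alleles the intron level differed by -0.91, also past the threshold. GRP7 had the second most intron counts of all members, 60539 over the 9 libraries. Its share was 9.64%, 10.8% and 11.8% in Col-0, 8.17%, 10.2% and 7.80% in pp4r3a-1, beside 7.31%, 7.83% and 7.63% in pp4r3a-2. Here pp4r3a-1 replicate 2 lay inside the Col-0 range and pp4r3a-2 lay below it. The ratio fell by 0.44 ± 0.06 (SE, edgeR adjusted p = 2.66e-08) and the intron level by 0.72. The copies are alike in sequence, and reads may be split between them.

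The 1 intron that all annotated transcripts of GRP8 share is shown whole, with the first and last bases of the GRP7 intron beside it. GRP8 has 4 annotated introns over its transcripts. The counted reads must lie in the stretch shown only if reads in any annotated exon were left out, and the counting rule is not given. The GRP8 intron has 283 bases at chr4:18274568-18274850 and that of GRP7 has 309 bases at chr2:9265894-9266202, both on the minus strand of RefSeq's TAIR10.1 and inside the coding sequence. They are written in the direction of transcription, with the GT and AG at the borders in capitals.
GRP8 intron: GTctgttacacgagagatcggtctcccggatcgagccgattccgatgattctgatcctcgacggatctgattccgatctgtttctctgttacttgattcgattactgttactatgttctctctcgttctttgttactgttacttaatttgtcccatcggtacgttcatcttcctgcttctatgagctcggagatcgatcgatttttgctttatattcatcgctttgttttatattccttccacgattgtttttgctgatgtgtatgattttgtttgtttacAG
GRP7 start: GTctgttacacgccgagatcggactccgag
GRP7 end: gatctggtttttgtattatttggataacAG

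The 6 members with the most intron counts show how much a few loci weigh. AT5G19150 held 97967 intron counts, AT4G38775 held 48868, AT4G07855 held 41704 and AT4G07975 held 41087, and each of these 4 overlaps a gene on the other strand. Their shares were 93.7% ± 0.165, 71.1% ± 0.101, 79.6% ± 0.464 and 97.0% ± 0.161 in Col-0 and 97.0% and 97.6%, 70.5% and 71.3%, 78.3% and 77.9%, and 97.0% and 97.1% in pp4r3a-1 and pp4r3a-2. The last 2 have no annotated intron. The ratio rose in AT5G19150, by 1.28, and fell in AT4G07855, by 0.13, a call that was lost without Col-0 replicate 1, Col-0 replicate 3, pp4r3a-1 replicate 3 or pp4r3a-2 replicate 3 (-0.13, -0.11, -0.11 and -0.11, with edgeR adjusted p of 0.0759 to 0.136). EXT4, a cell wall extensin without overlap, had a share of 31.5% ± 0.911 in Col-0 and 32.8% ± 2.28 and 31.6% ± 0.0737 in the mutants (SD, n = 3), with intron and exon levels that rose together by 1.23 and 1.19.

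Genes for RNA processing were described from lists of known factors. Of 16 SR splicing factor members, 12 were higher and 1, RS31, lower, with a median of 0.73 (-0.23 after centring, with 2 higher and 6 lower). RSZ21 went from 1.57%, 2.11% and 1.97% to 8.86%, 7.79% and 9.64% in pp4r3a-1, against 7.14%, 9.02% and 8.15% in pp4r3a-2, and SR30 from 1.79% ± 0.336 to 5.64% ± 1.12 and 6.24% ± 0.188, while SCL30A, RSZ22 and RS40 did not pass the test, with changes of -0.03, 0.09 and 0.14. Of 15 spliceosome components 12 were higher and 2, GEMIN2 and U2AF65B, lower, with a median of 0.80 (-0.16 after centring). PRP8A, the core protein of the catalytic centre, went from 0.236% to 0.560% and 0.438%, and U2AF35B, which takes part in recognising the 3′ splice site and whose gene overlaps another, from 0.600% ± 0.21 to 4.83% ± 0.481 and 5.10% ± 0.413 (SD, n = 3).

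The list named hnRNP-like also holds the RNA helicases UAP56A and UAP56B, which are not hnRNP proteins. Of its 7 members, 4 were lower, UAP56A, GRP8, UAP56B and GRP7, 2 were higher, PTB3 and PTB1, and PTB2 did not pass the test. The list median was -0.44 (-1.41 after centring, with 6 lower and none higher). Apart from the helicases, GRP7 and GRP8 were lower and PTB1 and PTB3 higher, so no common direction of the ratio as counted is read for them. The 4 lower genes are 2 pairs of close paralogs, so reads may be split and they are not 4 separate cases, and UAP56B overlaps another gene. Of 120 members whose product name marks them as RNA-binding or splicing proteins, 85 were higher and 9 lower, with a median of 0.71 (-0.26 after centring), beside 5392 and 130 of all 7274 members. Of 9 members of the nonsense-mediated decay and RNA decay list, 8 were higher and none lower, with a median of 0.89 (-0.08 after centring). They include UPF3, a core decay factor, which went from 2.24% ± 0.718 to 6.78% ± 0.786 and 6.29% ± 0.363, and the exoribonucleases XRN2, XRN3 and XRN4 with changes of 0.82, 1.27 and 1.0. VCS, a decapping cofactor, did not pass the test at 0.29.

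**Figure D5:**
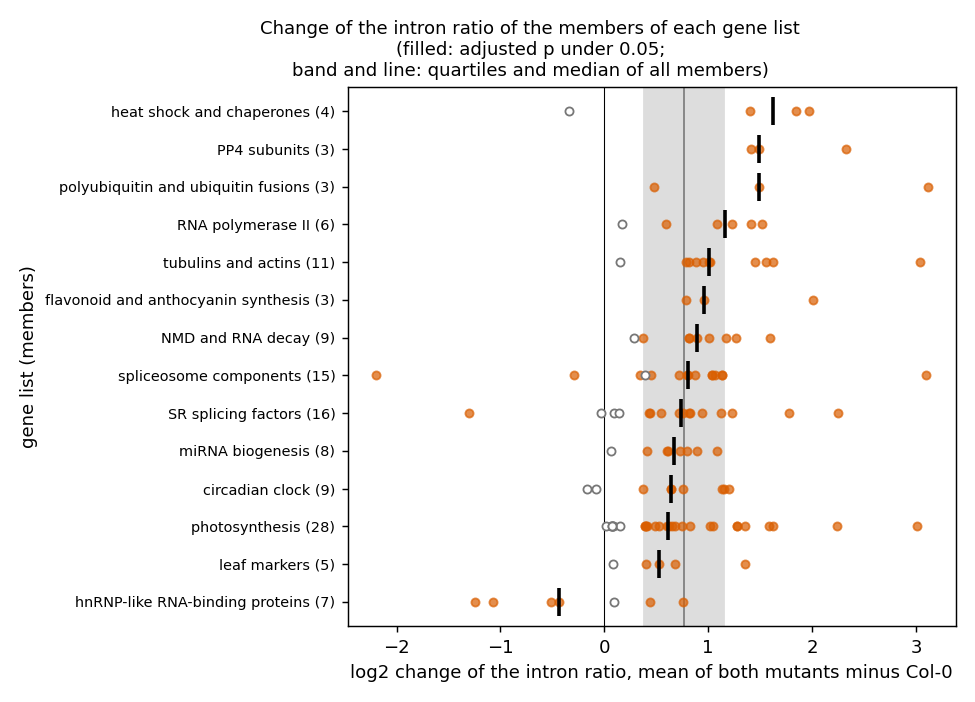
Log2 change of the intron ratio, mean of both mutants minus Col-0 (x axis), for the members of each gene list with at least 3 members (y axis, number of members in brackets). Filled points passed an adjusted p under 0.05, ticks are list medians, and the band and line give the quartiles and median of all members. The hnRNP-like list, which also holds the RNA helicases UAP56A and UAP56B, has a median of -0.44. All members have one of 0.77, and of -0.19 after centring.

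Photosynthesis genes, which are highly expressed in green seedlings, had a lower ratio in pp4r3a-2 than in pp4r3a-1. In the direct comparison 20 of 28 members were lower and none higher, beside 4.61% and 1.01% of all genes tested. The median was -0.40, beside -0.09 over all members. After centring 14 were lower and none higher, with a median of -0.28, beside 2.45% and 2.31% of all genes tested. Of the 18 members without an overlapping gene, 11 were lower and none higher, and after centring 6 and none, with a median of -0.23. The alleles were also apart over the 217 genes above 300 CPM, at mean intron densities of 15573 in pp4r3a-1 and 13244 in pp4r3a-2. The part of exon level in the difference of this list was not tested. These calls are those of edgeR. Over all 7274 members, limma called 3 and DESeq2 64 lower between the alleles. The summed exon level of the leaf markers, all of them in this list, was also higher in pp4r3a-2 than in pp4r3a-1, at 22797 to 24124 against 18252 to 19465 CPM, and its part in the ratio was not tested. Against Col-0, 21 were higher and none lower in the mean contrast, with a median of 0.61 (-0.35 after centring, with 7 higher and 18 lower). In pp4r3a-1, 26 were higher with a median of 0.90, and in pp4r3a-2, 17 with a median of 0.37. The antenna proteins had the largest changes: LHCB6 went from 0.281% ± 0.0292 to 1.43% ± 0.0949 and 1.20% ± 0.0892, LHCA4 from 0.225% ± 0.0122 to 0.884% ± 0.0494 and 0.539% ± 0.043, and LHCB3 from 0.221% ± 0.0234 to 0.688% ± 0.0562 and 0.465% ± 0.0313 (SD, n = 3), all 3 in genes that overlap another. Between the alleles, the ratio of LHCA1, LHCA4 and LHCB3 was lower in pp4r3a-2 by 0.81, 0.72 and 0.57 on the log2 scale. The 7 without a call were the small subunit genes of Rubisco, RBCS1A, RBCS1B, RBCS2B and RBCS3B, which are near-identical copies, the Calvin cycle genes SBPASE and FBA2, and LHCB2.1, with changes of 0.02 to 0.15. RBCS3B, for one, had 3.44% in Col-0 and 3.59% and 3.36% in the mutants.

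The other lists and classes are set beside all members, of which 74.1% were higher with a median of 0.77. Of 191 members for ribosomal proteins, 179 were higher and 1 lower, with a median of 0.92 over both alleles, 1.07 in pp4r3a-1 and 0.78 in pp4r3a-2 (-0.05 after centring). Between the alleles edgeR called 34 of these lower in pp4r3a-2 and 2 higher (4.61% and 1.01% of all genes tested), and after centring 12 and 4 (2.45% and 2.31%). Of 11 tubulins and actins 10 were higher, with a median of 1.01 (0.04 after centring), and ACT2 did not pass the test, at 0.690% in Col-0 and 0.803% and 0.733% in the mutants. Of 6 subunits of RNA polymerase II 5 were higher, with a median of 1.16 (0.20 after centring), among them the largest, NRPB1, from 0.629% ± 0.0373 to 1.66% ± 0.275 and 1.68% ± 0.0346 (SD, n = 3). The 8 proteins of miRNA biogenesis had 7 higher, with a median of 0.67 (-0.29 after centring). AGO1, which carries the mature miRNA, went from 1.08% ± 0.125 to 1.87% ± 0.0864 and 2.09% ± 0.102, and SE, a partner of the processing enzyme, from 2.2% to 3.89% and 2.87%, while DCL1, that enzyme, did not pass the test at 3.88%, 4.24% and 3.83%. AGO1 and DDL, which acts in the same pathway, have changes of -0.07 and -0.17 after centring.

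Of 9 circadian clock members 7 were higher and none lower in the mean contrast, with a median of 0.65 (-0.32 after centring). JMJD5, an oxygenase of the clock, went from 7.42%, 9.01% and 7.87% to 14.1%, 16.8% and 14.9% in pp4r3a-1, beside 17.9%, 16.7% and 16.7% in pp4r3a-2 although its intron counts dropped from 304 to 377 per Col-0 library to 37 to 66 per mutant library, since its exon level fell by 3.76 on the log2 scale and its intron level by 2.64. ELF3 and RVE2, with shares of 16.5% and 27.4% in Col-0, did not pass the test in the mean contrast, with changes of -0.08 and -0.17. The heat shock and chaperone list had 3 of 4 members higher, with a median of 1.62 (0.66 after centring), among them the near-identical BIP1 and BIP2, and the polyubiquitin list had 3 of 3 higher, with a median of 1.49 (0.53 after centring). The 3 members of flavonoid synthesis were higher, C4H by 2.0, TTG1 by 0.95 and 4CL1 by 0.79, of which TTG1 and 4CL1 had -0.01 and -0.17 after centring. ATM, a kinase and the only member from the DNA damage list, was higher by 1.04 (0.07 after centring), and of the marker lists 4 of 5 leaf genes (after centring 1 higher and 4 lower) and 1 root gene, PYK10 (0.40, and -0.57 after centring), were higher, while no flower or seed marker is a member.

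By product name, 180 of 230 protein kinases were higher and 6 lower (median 0.85), as were 109 and 1 of 140 transcription factors (0.82), 116 and 1 of 157 transporters (0.79), 53 and 2 of 70 chaperones (0.84), 32 and 4 of 42 RNA and DNA helicases (0.83), 21 and 1 of 29 disease resistance proteins (1.02), 27 and 0 of 34 aminoacyl-tRNA ligases (0.84), 41 and 2 of 60 glycosyltransferases and hydrolases (0.84) and 12 and 2 of 23 cytochromes P450 (0.70). The 88 ubiquitin ligases and F-box proteins had 60 higher and none lower, with a median of 0.77. After centring the medians of these classes lay between -0.26 and 0.06. Of 153 members annotated as long noncoding RNAs 14 were higher and 17 lower, with a median of -0.03 (-1.0 after centring, with none higher and 125 lower) and Col-0 shares of 38.9% to 40.0%. Of these 153, 4 have no overlapping gene. Of 26 members annotated as other noncoding RNAs 15 were higher and none lower, with a median of 0.50 (-0.46 after centring, with 2 higher and 9 lower), and of the 13 of them without an overlapping gene 9 were higher, with a median of 0.81. Of the 23 chloroplast-prefixed members 4 were higher and 1 lower (after centring none and 13, with a median of -0.79), and of the 11 mitochondrial-prefixed members none was higher and 5 lower (after centring none and 10, with a median of -1.66), with median shares of 89.9% to 94.5% in the Col-0 libraries.

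A small class of introns is removed by a separate, minor spliceosome, and most of these start with GTATCCTT or ATATCCTT. These letters, read on the transcribed strand at the first base of the intron and in no other place, were found in 281 of 131240 annotated introns of nuclear protein-coding genes (0.214%) and in 162 of 60477 introns of members (0.268%). Of the 146 members with such an intron 129 (88.4%) were higher and 1 lower, beside 74.1% and 1.79% of all members. Their median change was 0.94 (-0.03 after centring, with 32 higher and 22 lower). Of members with 10 to 19 introns of any type 83.5% were higher, and of those with 20 or more 86.3%. The part of intron number in the count was not tested. The median share of the 146 was 3.03% to 3.18% in Col-0 and 6.15% to 6.63% in the mutants. The counts are per gene, so the reads of the minor-type intron and those of the other introns of the gene are not separated.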

How the data were processed

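The 9 libraries of poly(A)-selected seedling RNA were aligned with STAR, per the submitters' processing notes. Each deposited table holds whole-number counts in an Exon and an Intron column, per the file headers. The STAR version, genome build, annotation, counting program, strand setting and rule for an intron read are not given in the sources used here. Of the loci, 37573 matched RefSeq's TAIR10.1 annotation by locus ID and 296 did not, and 2462 loci had intron counts but no annotated intron there, 77 of them members. Coordinates, overlaps and intron lengths come from that annotation.

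The intron ratio was fitted with edgeR's quasi-likelihood test (edgeR 4.0.16, R 4.3.3) on the counts of the 18 columns, with a term for each library and an intron term for each genotype, over genes with at least 30 intron counts in all, so that a library's depth drops out. Levels were fitted with the exon library sizes and TMM factors after filterByExpr. P-values were adjusted over all genes tested by the Benjamini-Hochberg method, with a threshold of 0.05. Standard errors of log2 changes are the absolute change divided by the square root of the F statistic of the fitted contrast. They thus rest on the same statistic as the p-values. Library summaries were compared with exact two-sided permutation tests (scipy 1.17.1). Alternatives used limma 3.58.1 on log2 ratios with 0.5 added to each count, and DESeq2 1.42.0. Tables and figures were made with numpy 2.4.6, pandas 2.3.3 and matplotlib 3.10.9 under Python 3.11.15, and the fits were tested on simulated data.

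Named genes are the 8 largest rises and 8 largest falls among members of at least 10 CPM that had no overlapping gene, passed the threshold in the mean contrast and in both alleles and showed no overlap of mutant and Col-0 libraries, the same for 4 each way with 1 intron, the 6 with the most intron counts, PP4R3A, up to 3 called genes per list, and the 4 largest differences each way between the alleles. Other members of a list were named after their values were seen. The members, lists and tests were chosen with earlier results of these data known. P-values measure the spread between samples labelled as biological replicates, and counts carry counting error, since reads without molecular identifiers are not independent molecules. Exon counts per library of 20733294 to 27022497 set the depth. Primary microRNA loci are not analysed here.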

Additional observations from a re-analysis of the deposited data

Results flagged for a closer look

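The genes below had the largest differences of the intron ratio between pp4r3a-2 and pp4r3a-1, each past the edgeR threshold in a test of the alleles themselves, and they are given as values. In ABCG40 the ratio was higher in pp4r3a-2 by 1.21 on the log2 scale (SE 0.22, adjusted p = 8.73e-06), at shares of 4.23% ± 1.39 against 1.89% ± 0.164 (SD, n = 3), both far under the 44.4% ± 2.94 of Col-0. AT5G61190, a putative endonuclease with a zinc finger domain, was higher by 1.34 (SE 0.36, adjusted p = 0.00671), at 5.15% ± 0.436 against 2.01% ± 1.21 and 1.83% ± 0.39 in Col-0. Without pp4r3a-1 replicate 3, with 2 intron counts, the difference was 0.96 (adjusted p = 0.136). OEP6, an outer envelope protein of plastids with no annotated intron, was higher by 1.16 (SE 0.35, adjusted p = 0.0245), at 0.392% ± 0.129 against 0.172% ± 0.0509. The call was lost without any of 4 libraries, pp4r3a-1 replicates 1 and 3 and pp4r3a-2 replicates 2 and 3, at 0.93 to 1.20 (adjusted p = 0.0656 to 0.207). AT1G54220, a dihydrolipoamide acetyltransferase, was higher by 0.87 (SE 0.19, adjusted p = 0.00026), at 7.91% ± 1.34 against 4.44% ± 0.506 and 2.95% ± 0.28 in Col-0.

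In the other direction, PCC1, a small protein controlled by pathogens and the clock, had a ratio lower in pp4r3a-2 by -1.60 on the log2 scale (SE 0.30, adjusted p = 1.95e-05), at 0.933% ± 0.199 against 2.84% ± 0.851 and 1.03% ± 0.0771 in Col-0. AT2G38740, a hydrolase of the HAD type, was at -1.51 (SE 0.26, adjusted p = 1.89e-06), with 1.64% ± 0.228 in pp4r3a-2, 4.56% ± 0.754 in pp4r3a-1 and 2.84% ± 0.40 in Col-0. PAE2, an alpha subunit of the 20S proteasome, was at -1.45 (SE 0.19, adjusted p = 2.92e-11), with 2.97% ± 0.245, 7.77% ± 1.30 and 2.84% ± 0.43. AT3G44020, a protein of the thylakoid lumen, was at -1.43 (SE 0.35, adjusted p = 0.00222), with 2.28% ± 0.865, 5.84% ± 0.465 and 3.23% ± 0.692, and without pp4r3a-2 replicate 2 it was at -1.15 (adjusted p = 0.0672). None of these 8 differences passed the limma test on the log2 ratio, and in DESeq2 ABCG40, AT1G54220, AT2G38740 and PAE2 did not pass either.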

How the results depend on the processing

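Counts of members are given as higher and lower in the ratio. In the contrasts with Col-0, the scaling of the intron columns moved both counts by over 1.5 times. With each library's median ratio taken out they were 987 and 2212 for the mean of both mutants, 866 and 2045 for pp4r3a-1, 894 and 1899 for pp4r3a-2 and 285 and 268 between the alleles. With the members' own median taken out, an alternative chosen after seeing the data, they were 1358 and 1700, 1293 and 1523, 1198 and 1481, and 228 and 302. With TMM factors computed separately on intron and exon columns they were 1143 and 1947, 1063 and 1776, 1041 and 1682, and 254 and 279, and the intron level with TMM factors of the intron counts had 1459 and 2683.

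At 450 or more intron counts 2328, 2335 and 2162 members were higher in the mean, pp4r3a-1 and pp4r3a-2, and between the alleles the counts were 150 and 471, beside 117 and 497. Genes without overlap gave 3488 and 30, 3464 and 24, 3104 and 43, and 67 higher between the alleles. A change of at least 2-fold gave 2481 and 27, 2723 and 27, 2293 and 35, and 7 and 38. An adjusted p under 0.01 gave 80 lower for pp4r3a-1 and 71 and 294 between the alleles. DESeq2 gave 55, 52 and 52 lower and, between the alleles, 4 and 64, where limma gave 1 and 3. Membership by a mean of 10 counts over all libraries gave 8645 higher.

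Leaving out 1 library in turn gave 5006 to 5348 higher and 110 to 136 lower in the mean contrast, 4997 to 5324 and 93 to 122 for pp4r3a-1, 4393 to 4798 and 106 to 134 for pp4r3a-2, and 83 to 120 and 313 to 512 between the alleles. Intron levels gave 4608 to 4868 and 535 to 615, exon levels 2323 to 2471 and 3151 to 3280, and the rise in pooled share was 1.14 to 1.22 points. That rise was 0.983 points over all loci, 1.15 without overlapping genes, 1.22 without the 100 members with the most intron counts and 2.02 for the median share. The exon level counts did not move by over 1.5 times under any alternative.

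The replicate numbers do not pair the samples: the deviations of the 9 same-number pairs had correlations of -0.027 to 0.023. With the replicate block the counts were 5385 and 126, 5324 and 121, 4762 and 132, and 113 and 488, with 4894 and 608 for the intron level and 2437 and 3265 for the exon level.

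In the mean contrast, genes whose ratio changed sign did so under scaling, in the order library median, members' median, separate TMM: AT4G07975 -0.94, -0.81 and -0.88, EXT4 -0.92, -0.78 and -0.85, 4CL1 -0.17, -0.036 and -0.11, UBQ1 -0.48, -0.35 and -0.42, DDL -0.17, -0.031 and -0.10, PSAF -0.28, -0.14 and -0.22, GAPA1 -0.44, -0.30 and -0.38, PYK10 -0.57, -0.43 and -0.50, PCC1 -0.29, -0.16 and -0.24, PAE2 -0.18, -0.041 and -0.11. TTG1 (-0.010) did so under the first only, and AGO1 (-0.072 and -0.0066) and AT5G61190 (-0.081 and -0.029) under the first and the last. AT3G44020 did so under the first, at -0.78 (edgeR adjusted p = 0.031). A change of sign is counted only where the main or the alternative value passed the threshold. The sign of AT3G44020 under the other scalings is therefore not given here. Of the other values of single genes, 775 kept the call and, where either value was called, the direction, while 77 lost and 9 gained the call. Of those that left out 1 library, 691 kept the call and 11 lost it.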
